A study of Rattus norvegicus with 22 samples.

Results

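The potassium channel genes of the rat hippocampus were taken as all symbols in the gene count table that start with Kcn and whose counts sum to 100 or more over the 14 RNA-seq samples, which gave 81 members among 17172 genes. Another 10 Kcn symbols lay under that minimum. The nearest of these were Kcnv2 with a sum of 90 counts, Kcnmb1 with 76 and Kcnj15 with 72, whereas Kcne3 with 115, Kcng3 with 154 and Kcna7 with 157 were just inside it. RNA-seq was carried out on the bulk hippocampus of the injured side of adult male Sprague-Dawley rats, in a day 1 set of 2 sham controls and 4 injured animals and a day 14 set of 4 of each. TBI rats received lateral fluid percussion (LFP), in which a pressure pulse of fluid is delivered through a craniectomy over 1 hemisphere. Sham rats had the same anesthesia and surgery without the pulse, so that every group compared here carries a craniectomy and its recovery time.

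Potassium channels let potassium ions leave the cell and thereby set the resting potential, repolarize the action potential and limit repetitive firing. Voltage-gated channels (Kcna, Kcnb, Kcnc, Kcnd, Kcnq and Kcnh) open on depolarization, the silent subunits (Kcnf, Kcng, Kcns and Kcnv) change the behavior of Kcnb channels, and calcium- and sodium-activated channels (Kcnma, Kcnn and Kcnt) follow firing. Inward rectifiers (Kcnj) and tandem-pore leak channels (Kcnk) work near rest in neurons and glia, and auxiliary subunits (Kcnab, Kcnip, Kcnmb and Kcne) alter the gating, trafficking or surface level of the pore-forming ones.

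Total counts per sample ranged from 15065540 to 23743703. Levels are given as CPM (counts scaled to a common library size) after TMM normalization, which are not divided by gene length and are therefore compared only within a gene. Changes are log2 fold changes from edgeR's quasi-likelihood test with their standard error (SE) and a p value adjusted (Benjamini-Hochberg) for the 12875 genes tested, and a member is said to rise or fall only where that value is under 0.05. All 81 members were tested. In bulk tissue, fewer cells of a type and less RNA per cell cannot be told apart. The neuron marker list summed to 11647 and 14326 CPM in sham and 4700 to 8988 CPM in TBI at day 1, with 4 of its 12 genes lower and 0 higher in TBI. At day 14 the same list summed to 10039 to 12969 CPM in sham and 8269 to 10139 CPM in TBI. The part of these markers in the results on the channel genes was not tested. A list of 16 choroid plexus genes stood apart in 3 samples, at 11357 CPM in sham day 1 replicate 1, 2108 CPM in TBI day 14 replicate 2 and 8800 CPM in TBI day 14 replicate 3, against 132 to 256 CPM in the other samples. Calls that were lost without these 3 samples are given with the value without them.

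At 1 day post-TBI, 25 of the 81 members were lower and 2 were higher than in time-point–matched sham controls. Over all tested genes, 7.93% were lower and 11.2% higher. The fold change was negative for 69 of the 81 members, and its median was -0.72 over the members and -0.02 over all tested genes. The samples of 28 members did not overlap between the groups with TBI lower, against 14.1% of all tested genes, and those of 3 members did not overlap with TBI higher, against 16.7%. The summed share of the members in all counts was 0.370% and 0.503% in sham, and it lay between 0.255% and 0.327% in TBI. The channel transcripts as a whole thus made up less of each TBI library than of either sham library.

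The count of lower members at day 1 depended on the pair of sham samples. Sham replicate 1 was below replicate 2 for 54 of the 81 members. Without replicate 2, 10 members were called lower, and 4 of the 25 were among them, namely Kcnc1, Kcnj9, Kcnj11 and Kcnj13. Without replicate 1, which holds the choroid plexus genes, 29 were called lower, including 23 of the 25. With the 3 samples high in choroid plexus genes left out, 27 were lower, including 22 of the 25. A fit on the 6 samples of day 1 alone called 2 members lower, Kcna6 and Kcnc2, and 28 had an unadjusted p under 0.05, while DESeq2 over all samples called 33. Of the TBI samples of day 1, replicate 1 was the lowest for 39 of the 81 members. Without that TBI sample, 25 members were called lower, including 22 of the 25.

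**Figure D1:**
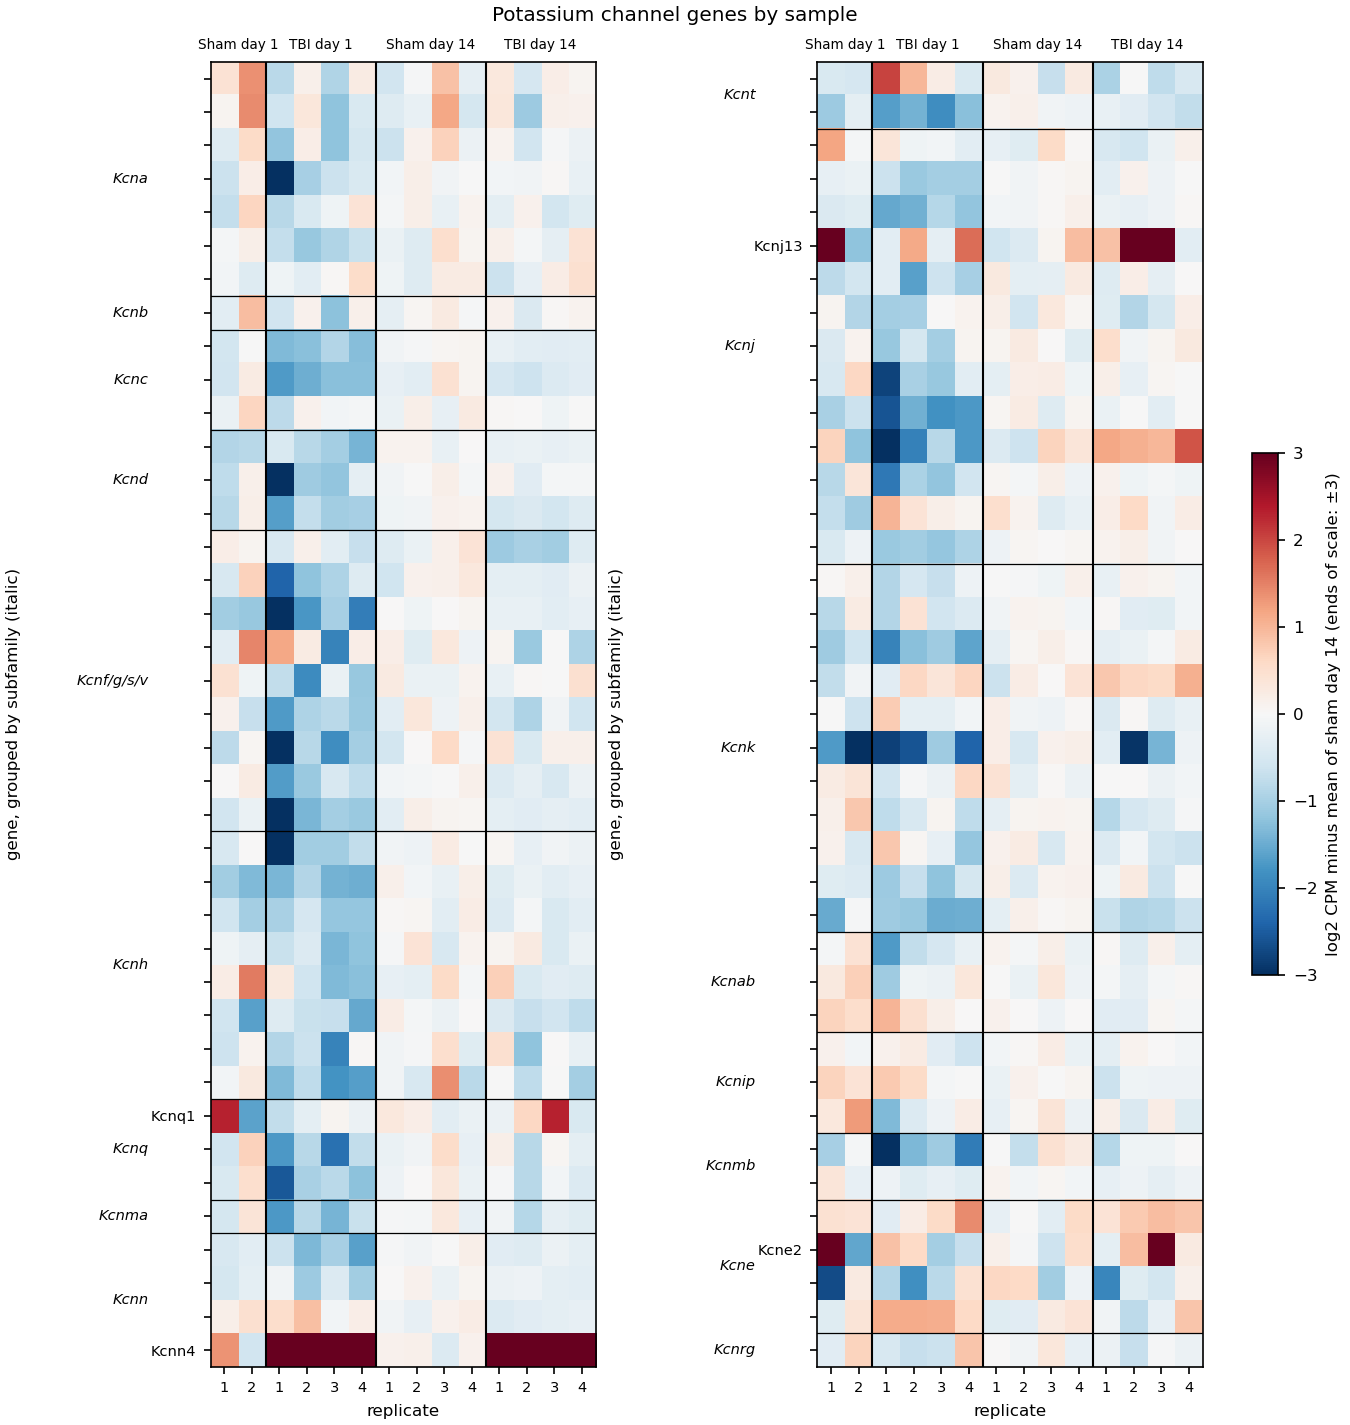
Level of 78 of the 81 members in each of the 14 samples, as log2 CPM minus the mean of the 4 sham samples of day 14, grouped by subfamily, with columns ordered by group and replicate and the color scale ending at -3 and 3. Most rows are blue in the 4 TBI columns of day 1 and near white at day 14, and Kcnn4 is dark red in all 8 TBI columns. Kcnj13 is the deepest red in the 3 samples high in choroid plexus genes. Kcne2 and Kcnq1 are so in sham day 1 replicate 1 and TBI day 14 replicate 3 only.

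The Kcna subfamily forms the low-threshold channels of axons and presynaptic terminals. At day 1, 2 of its 7 members fell, and the median difference of the group means was -0.91 in log2 CPM, against -0.02 over all tested genes. Kcna1, an axonal subunit, read 61.6 and 117 CPM in sham and 25.9, 50.0, 24.2 and 53.4 CPM in TBI, or -1.22 ± 0.40 on the log2 scale (SE, adjusted p = 0.044). All TBI samples lay below both sham samples, although TBI replicates 2 and 4 were close to sham replicate 1. The Kcna1 call was lost without TBI day 1 replicate 1 or 3 (adjusted p = 0.083 and 0.096). It was also lost without sham replicate 2 or 4 or TBI replicate 1, 3 or 4 of day 14 (adjusted p = 0.053 to 0.058). Without sham day 1 replicate 2, the Kcna1 value shrank to -0.68. Kcna6 fell by 0.90 ± 0.23 (adjusted p = 0.013), from 101 and 118 CPM to 47.9 to 66.0 CPM. Its partner subunit Kcna2 read 19.2 and 48.5 CPM in sham and 7.75 to 23.1 CPM in TBI. With overlapping groups, it did not pass the test (log2 fold change -1.27 ± 0.51, adjusted p = 0.093), but it passed with the 3 samples high in choroid plexus genes left out (-1.81, adjusted p = 0.039). Kcna3, which is found in axons and in immune cells, had a value of -0.75 ± 0.44 (adjusted p = 0.25), with 1.47 to 4.10 CPM in TBI and 2.69 and 5.30 CPM in sham.

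The Kcnc subfamily, whose fast channels allow high firing rates and are prominent in interneurons, was lower at day 1 in Kcnc1 and Kcnc2. Kcnc1 read 111 and 163 CPM in sham at day 1, 65.2, 68.4, 89.4 and 67.0 CPM in TBI at day 1, 151, 158, 171 and 174 CPM in sham at day 14 and 139, 130, 129 and 132 CPM in TBI at day 14. The TBI samples of each day lay below all sham samples of the same day, and the change at day 1 was -0.92 ± 0.16 on the log2 scale (adjusted p = 0.0012). Kcnc2 read 44.6 and 78.8 CPM in sham at day 1, 20.6, 24.4, 28 and 27.9 CPM in TBI at day 1, 56.4, 54.1, 92.1 and 71.4 CPM in sham at day 14 and 47.4, 43.8, 50.6 and 53.1 CPM in TBI at day 14. Again no TBI sample reached a sham sample of its day, and the log2 fold change at day 1 was -1.29 ± 0.23 (adjusted p = 0.0014). Neither Kcnc1 nor Kcnc2 was called at day 14, when 5.86% of all tested genes did not overlap with TBI lower. Markers of GABAergic interneurons moved alongside, with 6 of 9 tested genes lower and 0 higher at day 1 and a summed level of 689 and 884 CPM in sham and 408 to 547 CPM in TBI. Their part in the results on Kcnc1 and Kcnc2 was not tested.

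Promoter sequence was looked up for the 3 decreases with the lowest adjusted p at day 1, Kcnj9 (an inward rectifier described further on), Kcnc1 and Kcnc2, and for Kcnj13, whose pattern over the samples differs from theirs. Each sequence holds the 250 bases before the start site as annotated by RefSeq on build GRCr8, which is a newer build than the rn5 used for counting, and capitals mark a motif match on either strand.
Kcnj9, chr13:87320294-87320543, minus strand: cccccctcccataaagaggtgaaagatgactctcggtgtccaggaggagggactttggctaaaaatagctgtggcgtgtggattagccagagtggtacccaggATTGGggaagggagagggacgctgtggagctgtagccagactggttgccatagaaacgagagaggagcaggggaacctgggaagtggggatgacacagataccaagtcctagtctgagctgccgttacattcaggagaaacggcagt
Kcnc1, chr1:106038997-106039246, plus strand: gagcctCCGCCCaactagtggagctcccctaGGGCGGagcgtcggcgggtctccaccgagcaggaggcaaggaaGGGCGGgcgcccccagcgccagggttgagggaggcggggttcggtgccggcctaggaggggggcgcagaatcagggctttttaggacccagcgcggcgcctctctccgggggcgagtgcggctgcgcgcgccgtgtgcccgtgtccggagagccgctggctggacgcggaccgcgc
Kcnc2, chr7:49587407-49587656, plus strand, the downstream of its 2 records: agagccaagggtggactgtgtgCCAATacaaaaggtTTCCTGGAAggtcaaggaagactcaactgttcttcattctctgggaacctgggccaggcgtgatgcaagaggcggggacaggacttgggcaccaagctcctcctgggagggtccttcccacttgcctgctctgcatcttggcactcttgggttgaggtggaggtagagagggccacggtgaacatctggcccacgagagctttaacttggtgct
Kcnj13, chr9:95518987-95519236, minus strand: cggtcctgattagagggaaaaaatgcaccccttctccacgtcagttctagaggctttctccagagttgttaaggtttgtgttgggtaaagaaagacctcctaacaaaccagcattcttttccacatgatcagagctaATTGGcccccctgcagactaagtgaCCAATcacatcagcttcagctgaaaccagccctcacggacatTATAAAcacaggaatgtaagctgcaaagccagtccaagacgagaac

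The capitals are the CCAAT box (CCAAT), the GC box (GGGCGG), the TATA box (TATAAA) and a STAT motif (TTCCNGGAA), each searched on both strands. The first base of a match lay 147 bases before the start site in Kcnj9, 244, 219 and 176 bases before it in Kcnc1, 228 and 214 bases before it in Kcnc2, and 113, 88 and 46 bases before it in Kcnj13. Of 33469 rat promoters of this length, 34.0% hold a CCAAT box, 30.5% a GC box, 12.9% a TATA box and 1.07% the STAT motif. Kcnc1 and Kcnc2 thus had unlike promoters, Kcnc1 with 30 CpG pairs in 250 bases and Kcnc2 with 4. A promoter record was found for 52 of the 81 members, and no comparison of base content was drawn over the whole set because fewer than 80% have one.

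The Kcnd subfamily carries the A-type current of dendrites. Kcnd3 fell by 0.82 ± 0.24 (adjusted p = 0.027), and without sham replicate 2 its value was -0.24 (adjusted p = 0.64). Kcnd2 read 107 and 202 CPM in sham and 20.2, 87.6, 80.6 and 152 CPM in TBI at day 1, and with this wide spread its log2 fold change of -0.86 ± 0.46 did not pass the test (adjusted p = 0.20). Kcnd1 read 15.8 and 16.6 CPM in sham and 11.1 to 21.4 CPM in TBI and did not pass it either.

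Among the silent subunits, 3 of 9 fell at day 1, and the median difference was -1.13 in log2 CPM. Kcng1 read 59.7 and 135 CPM in sham and 15.6 to 63.6 CPM in TBI (log2 fold change -1.29 ± 0.39, adjusted p = 0.033). Without sham day 1 replicate 2 the Kcng1 value was -0.59. Kcns3 read 14.2 and 16.8 CPM in sham and 4.36, 6.49, 10.1 and 8.28 CPM in TBI (-1.08 ± 0.24, adjusted p = 0.0066). The groups of Kcns3 were clearly apart, while those of Kcng1 overlapped. Kcng4 had a value of -1.07 ± 0.33 (adjusted p = 0.037), with 25.5 and 38.6 CPM in sham and 7.43 to 24.3 CPM in TBI. The call of Kcng4 was lost without sham replicate 1 (-0.74, adjusted p = 0.21) and with the 3 samples high in choroid plexus genes left out (-0.75, adjusted p = 0.25).

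The Kcnq subfamily gives the M-current, which holds neurons back from repetitive firing. Kcnq3 fell by 1.44 ± 0.40 at day 1 (adjusted p = 0.022), from 65.9 and 159 CPM in sham to 29.9, 55.8, 21.0 and 58.7 CPM in TBI. Kcnq5 fell by 1.37 ± 0.36 (adjusted p = 0.017), from 113 and 219 CPM to 26.4, 77.8, 87.1 and 65.9 CPM. In both genes every TBI sample was below both sham samples, but the pair of sham samples themselves differed widely. Without sham day 1 replicate 2, Kcnq3 and Kcnq5 were not called (adjusted p = 0.47 and 0.31).

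Of the 8 Kcnh genes, which encode ether-à-go-go type channels, Kcnh5 fell by 1.71 ± 0.53 at day 1 (adjusted p = 0.036). It was a low-level gene, with 1.67 and 4.33 CPM in sham and 0.504 to 1.76 CPM in TBI, and the groups overlapped. Without sham replicate 2 its adjusted p was 0.52.

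Channels that follow firing were divided. Kcnma1, the large-conductance channel opened by calcium and voltage together, fell by 1.08 ± 0.29 (adjusted p = 0.018), from 71.6 and 135 CPM in sham to 31.5, 58.1, 39.6 and 65.5 CPM in TBI at day 1. Kcnn1, a small-conductance calcium-activated channel, fell by 0.72 ± 0.21 (adjusted p = 0.028), a call that was lost with the 3 samples high in choroid plexus genes left out (-0.81, adjusted p = 0.074). Its relative Kcnn2, which shapes the afterhyperpolarization, read 37.0 and 43.4 CPM in sham and 24.7 to 49.5 CPM in TBI (-0.21 ± 0.23, adjusted p = 0.55). Of the sodium-activated pair, Kcnt2 fell by 0.90 ± 0.22 (adjusted p = 0.010). Without sham day 1 replicate 2 the values were -0.56 for Kcnma1, -0.64 for Kcnn1 and -0.44 for Kcnt2. Kcnt1 read 56.7 and 54.4 CPM in sham and 315, 155, 90.3 and 56.0 CPM in TBI. The TBI samples thus ran from the sham level to several times above it, and the log2 fold change of 1.47 ± 0.53 missed the threshold (adjusted p = 0.063). Kcnt1 passed under DESeq2 (adjusted p = 0.049) and without TBI day 1 replicate 3 or 4 (adjusted p = 0.048 and 0.013). It did not pass under limma-voom or in the fit on the samples of day 1 alone.

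**Figure D2:**
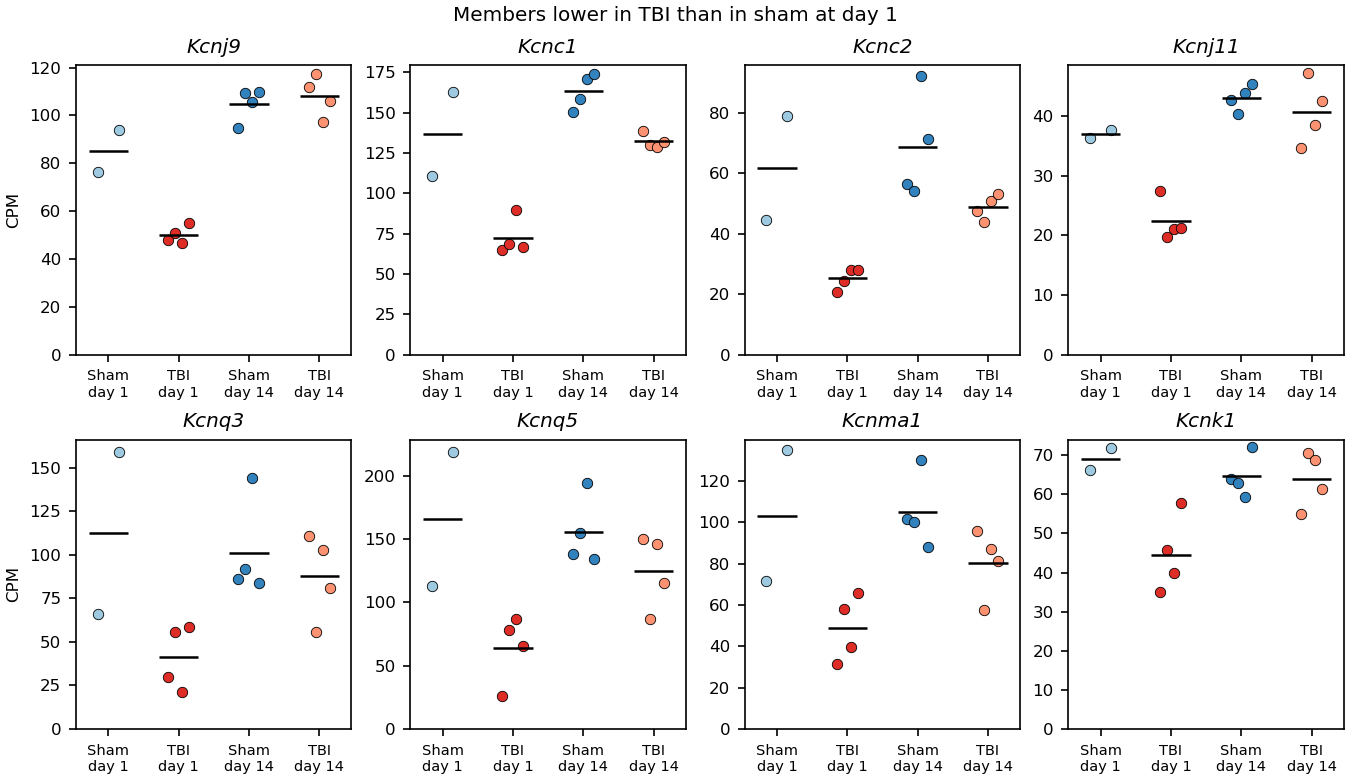
CPM of 8 members that were lower in TBI than in sham at day 1, with 1 point per sample, the 4 groups on the horizontal axis and a bar at each group mean. In all 8 members both sham samples of day 1 lie above all TBI samples of day 1. In Kcnq3, Kcnq5 and Kcnma1 the sham samples of day 1 lie far apart from each other.

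Kcnn4, the intermediate-conductance calcium-activated channel of microglia and blood cells, rose at both days. It read 1.51 and 0.323 CPM in sham at day 1, 15.3, 25.5, 24.9 and 21.8 CPM in TBI at day 1, 0.590, 0.601, 0.379 and 0.599 CPM in sham at day 14 and 6.63, 7.21, 6.51 and 14.2 CPM in TBI at day 14. Every TBI sample was several times above every sham sample at both days. The log2 fold change was 4.60 ± 0.53 at day 1 (adjusted p = 4.4e-05) and 3.99 ± 0.41 at day 14 (adjusted p = 3.1e-05), and the difference between the days of 0.62 ± 0.65 did not pass the test (adjusted p = 0.63). Over the 14 leave-one-out fits the value ranged from 3.85 to 6.05 at day 1 and from 3.64 to 4.12 at day 14. Blood leukocyte markers summed to 28.9 and 59.8 CPM in sham and 258 to 494 CPM in TBI at day 1, with 7 of 9 tested genes higher. At day 14 the leukocyte markers summed to 36.0 to 51.1 CPM in sham and 77.8 to 208 CPM in TBI, with 2 of 9 genes higher. Microglia markers summed to 467 and 754 CPM in sham and 815 to 1044 CPM in TBI at day 1, with 3 of 11 genes higher and 2 lower. They summed to 541 to 701 CPM in sham and 1189 to 2107 CPM in TBI at day 14, with 9 of 11 genes higher. Their part in the Kcnn4 result was not tested.

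**Figure D3:**
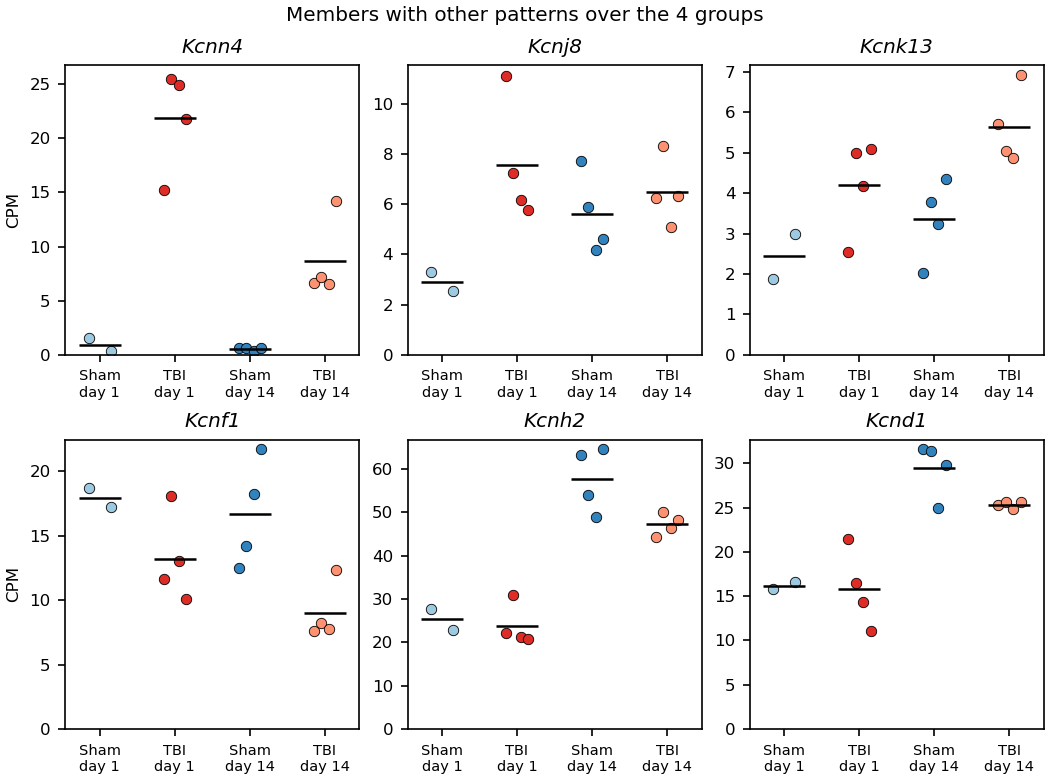
CPM of 6 members with other patterns over the 4 groups, with 1 point per sample and a bar at each group mean. Kcnn4 is near 0 in both sham groups and higher in both TBI groups, Kcnf1 is lower in TBI at day 14, and Kcnh2 and Kcnd1 differ between the days.

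The inward rectifiers had 6 of 13 members lower and 1 higher at day 1. Of the 4 subunits of G protein-gated channels, which mediate slow inhibition, Kcnj6 and Kcnj9 fell. Kcnj9 read 76.2 and 94.0 CPM in sham at day 1, 48.0, 51.0, 46.7 and 55.0 CPM in TBI at day 1, 94.8, 110, 105 and 110 CPM in sham at day 14 and 112, 117, 97.2 and 106 CPM in TBI at day 14. The 4 TBI samples of day 1 were below all other samples, whereas those of day 14 overlapped the sham samples of that day, with replicates 1 and 2 above every sham sample. Its log2 fold change at day 1 was -0.76 ± 0.13 (adjusted p = 0.00095), the lowest adjusted p among the decreases. Kcnj6 read 234 and 538 CPM in sham and 94.5 to 282 CPM in TBI (-0.995 ± 0.327, adjusted p = 0.046), a call that was lost in most fits that left out a sample. Kcnj3, with which Kcnj6 and Kcnj9 assemble, read 53.6 and 116 CPM in sham and 10.8, 38.0, 34.0 and 60.4 CPM in TBI, and missed the threshold (-1.24 ± 0.42, adjusted p = 0.052). It passed under DESeq2 (adjusted p = 0.021) and with the 3 samples high in choroid plexus genes left out (-1.72, adjusted p = 0.034).

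Of the classical and ATP-sensitive channels, the ATP-sensitive pair Kcnj11 and Kcnj8 moved in opposite directions. Kcnj4, a strong rectifier of neurons, fell by 1.03 ± 0.24 (adjusted p = 0.0085), from 43.6 and 55.1 CPM to 14.1, 31.7, 24.4 and 26.1 CPM, and Kcnj12 fell by 0.84 ± 0.20 (adjusted p = 0.011). Kcnj11, the pore of the neuronal ATP-sensitive channel, read 36.3 and 37.7 CPM in sham and 27.3, 19.8, 21.1 and 21.3 CPM in TBI at day 1 (-0.73 ± 0.15, adjusted p = 0.0044). Kcnj8, the pore of the ATP-sensitive channel of pericytes and smooth muscle, rose instead. It read 3.29 and 2.54 CPM in sham and 11.1, 7.23, 6.14 and 5.77 CPM in TBI at day 1 (1.38 ± 0.34, adjusted p = 0.011), and 4.16 to 7.73 CPM in sham and 5.07 to 8.32 CPM in TBI at day 14 (0.21 ± 0.26, adjusted p = 0.85). The TBI samples of day 1 thus lay within the range of day 14 for all but 1 sample, and the sham samples of day 1 were the lowest of all. Without sham replicate 2 the call of Kcnj8 was lost (adjusted p = 0.13). Vascular markers summed to 283 and 527 CPM in sham and 497 to 708 CPM in TBI at day 1, with 2 of 11 genes higher, and their part in the Kcnj8 result was not tested.

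The glial inward rectifiers Kcnj10 and Kcnj16, which clear potassium from around neurons, did not pass the test at either day. Kcnj10 read 85.7 and 36.3 CPM in sham and 30.2 to 48.1 CPM in TBI at day 1 (-0.72 ± 0.32, adjusted p = 0.12), and the value was 0.03 without sham replicate 1 and -1.21, then called, without sham replicate 2 (adjusted p = 0.035). At day 14 it was -0.30 ± 0.27 (adjusted p = 0.77). Kcnj16 had values of -0.06 ± 0.39 at day 1 and -0.37 ± 0.32 at day 14 (adjusted p = 0.93 and 0.76).

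Kcnj13, a weak rectifier of the choroid plexus and other epithelia, had the largest negative fold change at day 1 (-5.73 ± 1.61, adjusted p = 0.023), and this rested on 1 sample. It read 75.3 and 0.0922 CPM in sham at day 1, 0.259, 0.893, 0.275 and 1.34 CPM in TBI at day 1, 0.197, 0.240, 0.379 and 0.762 CPM in sham at day 14 and 0.730, 14.5, 51.5 and 0.264 CPM in TBI at day 14. The 3 high samples were those in which the choroid plexus list stood apart, where transthyretin (Ttr) read 7579, 1407 and 7036 CPM against 3.23 to 11.5 CPM elsewhere, while 1 of the 16 listed genes, Otx2, was at 0 in every sample. Without sham replicate 1 the value at day 1 turned to 2.85, and with the 3 samples left out it was 2.82 ± 1.36 (adjusted p = 0.16). Kcne2, an auxiliary subunit that is also abundant in that epithelium, read 47.6 and 1.57 CPM in sham and 2.34 to 9.03 CPM in TBI at day 1, and 3.08 to 6.97 CPM in sham and 3.91, 9.20, 47.9 and 5.81 CPM in TBI at day 14. Neither its value at day 1 (-2.18 ± 0.98, adjusted p = 0.13) nor that at day 14 (1.74 ± 0.87, adjusted p = 0.43) passed the test. Kcnq1, its partner there, was at 4.20 and 4.22 CPM in sham day 1 replicate 1 and TBI day 14 replicate 3 and at 0.184 to 1.23 CPM in the other samples.

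**Figure D4:**
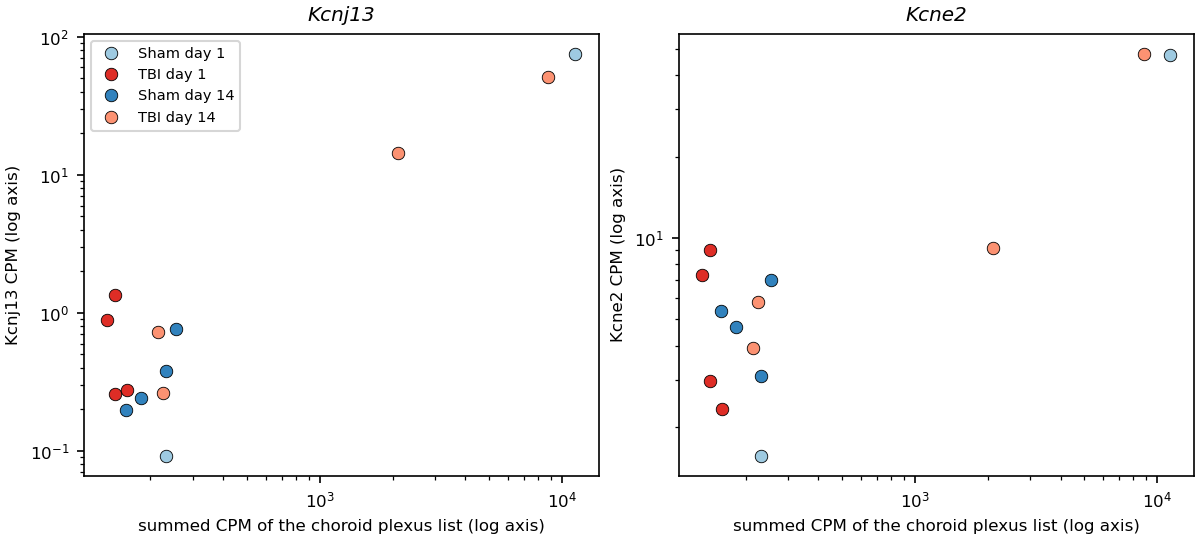
CPM of Kcnj13 and Kcne2 in each sample against the summed CPM of 16 choroid plexus genes, none of them a potassium channel, on log axes with 1 point per sample colored by group. In Kcnj13 the 3 samples with sums of 2108, 8800 and 11357 CPM lie above all others, at 14.5, 51.5 and 75.3 CPM.

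Of the 11 tandem-pore leak channels, Kcnk1 and Kcnk3 fell at day 1. Kcnk1 read 66.3 and 71.8 CPM in sham and 35.0, 45.7, 39.9 and 57.7 CPM in TBI (-0.63 ± 0.17, adjusted p = 0.020). Kcnk3, an acid-sensitive leak channel, had a value of -0.97 ± 0.30 (adjusted p = 0.037) at 2.33 to 4.31 CPM in TBI and 4.47 and 7.10 CPM in sham, so that its highest TBI sample lay just below the lower sham sample. The Kcnk3 call was lost without TBI day 1 replicate 1, 2 or 4 (adjusted p = 0.061 to 0.067). It was also lost without sham day 14 replicate 2 or 4 (adjusted p = 0.052 and 0.051). Without sham day 1 replicate 2, the Kcnk3 value shrank to -0.59. Kcnk2, a mechanosensitive channel, had a value of -0.30 ± 0.26 (adjusted p = 0.44) with 12.5 to 28.8 CPM in TBI around 22.4 and 24.7 CPM in sham. Kcnk13, known in microglia, read 1.89 and 3.00 CPM in sham and 2.54, 4.99, 4.17 and 5.10 CPM in TBI at day 1 (0.78 ± 0.35, adjusted p = 0.13). At day 14 it read 2.03, 3.79, 3.25 and 4.35 CPM in sham and 5.70, 5.04, 4.87 and 6.92 CPM in TBI. All 4 TBI samples of day 14 were above all sham samples, yet the value of 0.74 ± 0.28 did not pass the test over all genes (adjusted p = 0.21).

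Of the 12 auxiliary subunits, 2 fell at day 1. Kcnab1, a cytoplasmic partner of Kcna channels, fell by 0.90 ± 0.28 (adjusted p = 0.038), from 107 and 152 CPM to 34.5 to 95.6 CPM. Kcnip4, a calcium-binding partner of Kcnd channels, had a log2 fold change of -1.2 ± 0.34 (adjusted p = 0.024), going from 30.0 and 58.0 CPM to 9.44, 18.1, 21.4 and 27.8 CPM. Without sham day 1 replicate 2 the values were -0.63 for Kcnab1 and -0.64 for Kcnip4. The other Kcnip genes were near 0, with -0.13 ± 0.22 for Kcnip1 and -0.18 ± 0.22 for Kcnip3 (adjusted p = 0.70 and 0.60). Kcnmb4, the neuronal partner of Kcnma1, had a value of -0.36 ± 0.15 (adjusted p = 0.10), with 38.6 to 45.0 CPM in TBI and 63.9 and 41.8 CPM in sham. All 4 Kcne genes and Kcnrg were without a call against sham at day 1.

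At day 14, 1 member was higher and 1 was lower in TBI than in sham, against 4.07% and 0.365% of all tested genes. The median log2 fold change over the members was -0.16, against -0.03 over all tested genes, and 66 of 81 were negative. Samples of 12 members did not overlap with TBI lower, against 5.86% of all tested genes, and those of 3 members did not overlap with TBI higher, against 9.13%. The members made up 0.391% to 0.444% of counts in TBI and 0.434% to 0.511% in sham. The higher member was Kcnn4, described above.

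Kcnf1, a silent subunit, was the lower one. It read 18.7 and 17.2 CPM in sham at day 1, 11.7, 18.1, 13.1 and 10.1 CPM in TBI at day 1, 12.5, 14.2, 18.2 and 21.8 CPM in sham at day 14 and 7.63, 8.20, 7.80 and 12.4 CPM in TBI at day 14. Of the TBI samples of day 14, 3 lay close together and the highest came just under the lowest sham sample. The log2 fold change was -0.89 ± 0.22 (adjusted p = 0.033) at day 14 and -0.44 ± 0.27 (adjusted p = 0.26) at day 1. The call at day 14 was lost without sham replicates 3 or 4 or TBI replicates 1, 2 or 3 of that day (adjusted p = 0.09 to 0.13) and with the 3 samples high in choroid plexus genes left out (-0.71, adjusted p = 0.38).

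**Figure D5:**
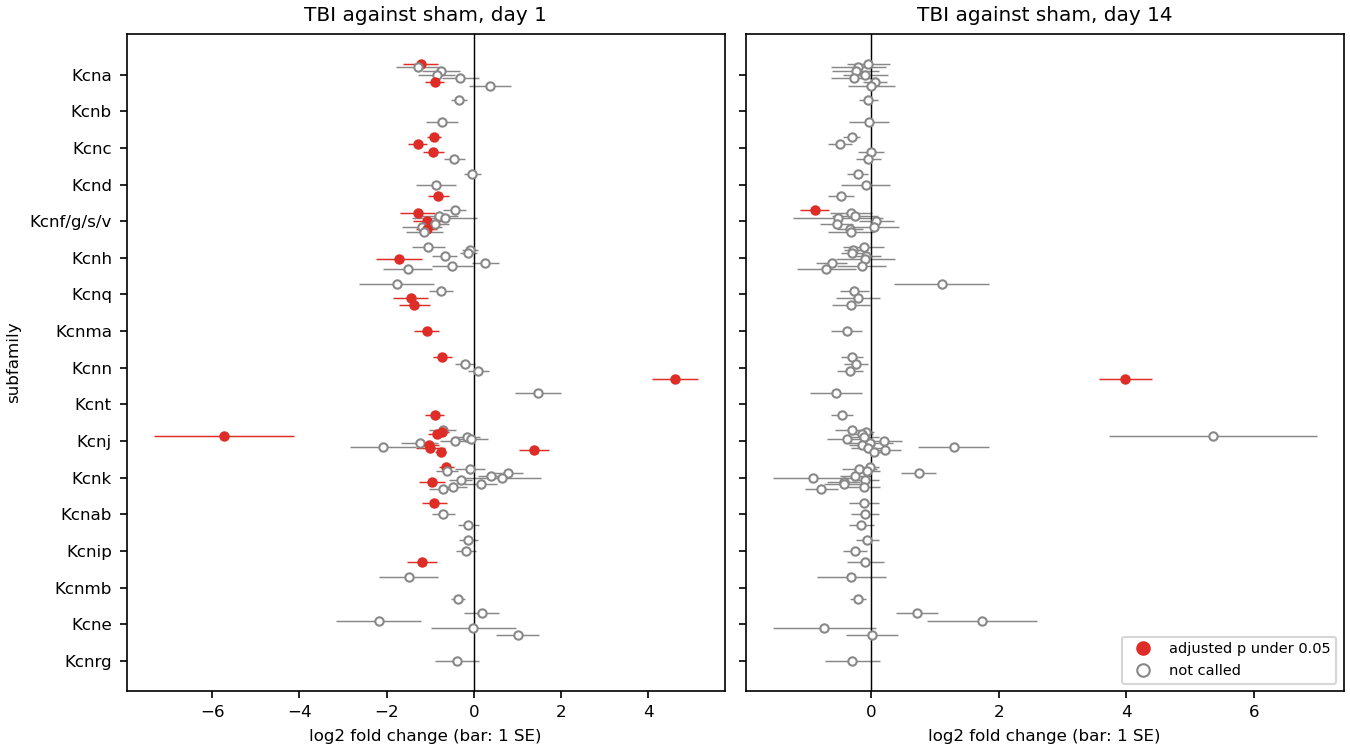
Log2 fold change of TBI against sham for each member, with 1 SE, at day 1 (left) and day 14 (right), arranged by subfamily, with red points for an adjusted p under 0.05. At day 1 most points lie left of 0 with 25 red decreases and 2 red increases, and at day 14 most lie near 0 with Kcnn4 and Kcnf1 in red; the horizontal scales of the panels differ.

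The difference between the TBI effects of the days was tested directly. It passed for 2 members, both with the lower value at day 1, against 1.44% of all tested genes in that direction and 2.24% in the other. For Kcnj9 the effect at day 1 was lower than that at day 14 by 0.81 on the log2 scale (-0.81 ± 0.17, adjusted p = 0.016), and it did not pass without sham day 1 replicate 2 (adjusted p = 0.08). For Kcnj13 the difference was -11.09 ± 2.29 (adjusted p = 0.016), and with the 3 samples high in choroid plexus genes left out it was 2.53 ± 1.61 (adjusted p = 0.38). For the other 23 decreases at day 1, a return toward sham at day 14 was therefore not shown by this test, although none of them was called at day 14.

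Some members differed between the days in sham rats. In sham at day 1, 7 members (8.64%) were lower and 1 (1.23%) was higher than in sham at day 14, against 7.88% and 11.3% of all tested genes. The share of lower members was thus close to that of all tested genes. Kcnh2, which forms the rapid delayed rectifier of the heart and is also present in neurons, read 27.6 and 23.0 CPM in sham at day 1, 22.2, 31.0, 21.3 and 20.7 CPM in TBI at day 1, 63.3, 54.0, 49.0 and 64.7 CPM in sham at day 14 and 44.3, 50.0, 46.4 and 48.2 CPM in TBI at day 14. All 6 samples of day 1 lay below all 8 samples of day 14, with or without injury, and the log2 fold change between the sham groups was -1.19 ± 0.18 (adjusted p = 0.0019). Kcnd1 showed the same order, with 11.1 to 21.4 CPM over the 6 samples of day 1 and 24.8 to 31.7 CPM over the 8 samples of day 14 (-0.86 ± 0.21, adjusted p = 0.013).

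The other members lower in sham at day 1 than in sham at day 14 were Kcnk16 (-2.78 ± 0.93, adjusted p = 0.048), a leak channel that read 1.67 and 0.0461 CPM at day 1 and 4.03 to 6.49 CPM at day 14, Kcnh6 (-1.04 ± 0.32, adjusted p = 0.035), Kcnk12 (-0.84 ± 0.26, adjusted p = 0.039), Kcnj4 and Kcnh3. Kcnj4 and Kcnh3 had fold changes of -0.82 and -0.81 (adjusted p = 0.037 and 0.019). The member higher at day 1 was Kcnj13, which reversed to -2.05 without sham day 1 replicate 1. The number of members called lower was 4 when replicate 1 of sham day 1 was dropped and 3 when its replicate 2 was. Dropping replicate 1, 2 or 4 of sham day 14 gave 4, 3 or 2. Kcnk16 was not called when any of the sham day 14 samples was dropped (adjusted p = 0.063 to 0.090). Its value was -1.79 without sham day 1 replicate 2. With the 3 samples high in choroid plexus genes left out, Kcnd1, Kcnk12 and Kcnj4 were not called (adjusted p = 0.093, 0.26 and 0.21). Day of collection and time since surgery cannot be told apart in this comparison.

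Against sham at day 14, the baseline that the study used for its trajectories, TBI at day 1 had 44 members lower and 2 higher, Kcnn4 and Kcne4. Over all tested genes 21% were lower and 25% higher. Injury and day differ together in this comparison, and it shares its TBI samples with the comparison at day 1. Of the silent subunits 7 of 9 and of the Kcnh genes 6 of 8 were among the 44, beside 3 of 9 and 1 of 8 against the sham rats of day 1. Kcnh2 was lower here and was not called against sham at day 1, its level being that of the sham rats of the same day.

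Genes that work with potassium channels were counted in a pair of lists. The partner list holds mainly proteins that bind, anchor or traffic the channels, and also Rest, a transcription factor. Of its 22 tested genes, 7 were lower and 0 higher at day 1, beside 7.93% and 11.2% of all tested genes. The 3 largest changes were those of Lgi1, a secreted protein bound to presynaptic Kcna complexes (-1.44 ± 0.25, adjusted p = 0.0012), its receptor Adam23 (-1.13 ± 0.38, adjusted p = 0.049), and Amigo1, a partner of Kcnb channels (-1.12 ± 0.25, adjusted p = 0.0063). At day 14, 1 of the 22 was called. This was Dpp10, a partner of Kcnd channels, which read 23.4, 23.0, 34.0 and 36.7 CPM in sham and 19.3, 15, 16.6 and 17.9 CPM in TBI (-0.77 ± 0.16, adjusted p = 0.0094). Of 22 other genes linked to potassium transport, among them pacemaker channels, cotransporters, and the sodium-potassium pump and its regulators, 7 were lower and 0 higher at day 1, and none was called at day 14, when 0.365% of all tested genes were lower and 4.07% higher. The medians were -0.63 for the partners and -0.44 for the other genes at day 1, and -0.09 and -0.16 at day 14.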

How the data were processed

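Polyadenylated RNA of 14 rat hippocampi was used (sham day 1 n = 2, all other groups n = 4), grouped by their labels. The authors aligned single-end reads to rn5 with STAR 2.4.2a and used featureCounts 1.5.0 with UCSC gene models, and the deposited counts are whole numbers without normalization. The strand setting of the counting was not given in the sources used here, so reads of overlapping genes cannot be told apart. H3K4me3 peak lists from day 1 were not used here, since no rn5 annotation was at hand.

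Testing was done with edgeR 4.0.16 under R 4.3.3 (default expression filter, TMM scaling, a quasi-likelihood model holding the 4 group means of all 14 samples, two-sided tests, Benjamini-Hochberg adjustment over 12875 genes, threshold 0.05). Since sham day 1 holds 2 samples, its variance estimate is shared with the other groups. Log2 CPM used a prior count of 2. Replicates differed by more than counting noise in all 19 pairs (chi-squared per degree of freedom 12.6 to 166). At these depths low members such as Kcne3, Kcng3 and Kcna7 have few counts in some samples. Alternatives were limma-voom (limma 3.58.1), DESeq2 1.42.0, other factors, filters and membership minimums, a replicate block, only the groups compared, a choroid plexus score as covariate, and each sample left out. Leaving out the 3 samples high in choroid plexus genes was added after seeing the data. Figures were drawn with matplotlib 3.10.9, and the tests were checked on simulated counts.

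Every member could be named, but some are not reported here. Statistics are given for members called at day 14 or in the difference of effects, the 15 largest calls per direction at day 1, the 5 largest for sham by day, and a fixed set of 23 widely studied members. Kcna6, Kcnd3, Kcnf1 at day 1, Kcnn1, Kcnt1, Kcnt2, Kcnj11, Kcnj12, Kcnab1, the difference for Kcnn4, and Kcnj4 and Kcnh3 by day were named after their values were seen. The members and gene lists were chosen with earlier results of these data known.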

Additional observations from a re-analysis of the deposited data

Results flagged for a closer look

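The difference between the TBI effects of the days passed the test for Kcnj13 (-11.09 on the log2 scale, day 1 minus day 14) and Kcnj9 (-0.81). For Kcnj13 it read 2.53 without the 3 samples high in choroid plexus genes.

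In 12 of the 141 groups of 4 samples tested, 1 sample stood apart from the rest by Dixon's criterion, which chance meets in about 1 in 20 groups. At day 14 in TBI these were Kcna2 (lowest, 3.10 in log2 CPM, replicate 2), Kcnf1 (highest, 3.64, replicate 4), Kcnh5 (highest, 1.32, replicate 1), Kcnip3 (lowest, 4.29, replicate 1) and Kcnn4 (highest, 3.84, replicate 4). At day 1 in TBI they were Kcnc1 (highest, 6.48, replicate 3) and Kcnh2 (highest, 4.96, replicate 2). In sham at day 14 they were Kcnk3 (lowest, 1.79, replicate 1), Kcnk16 (lowest, 2.05, replicate 2), Kcnn4 (lowest, -1.05, replicate 3), Kcnt1 (lowest, 5.59, replicate 3) and Kcnq3 (highest, 7.17, replicate 3).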

How the results depend on the processing

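At day 1, 2 members were called lower and 1 higher in a fit on the groups compared alone, and 1 was called higher with at least 10 counts in every sample. That filter leaves 70 members and takes Kcnn4, Kcne4 and Kcnj13 out of the test, so counts of 0 higher under it are no lost calls of theirs. Leaving out each sample in turn gave 10 to 29 members lower and 1 to 3 higher at day 1, 0 to 2 lower and 1 to 2 higher at day 14, 2 to 4 lower and 0 to 1 higher in the difference of the TBI effects, 2 to 10 lower and 0 to 4 higher in sham day 1 against sham day 14, and 1 to 5 higher in TBI day 1 against sham day 14. A lone sample of sham day 1 is then assumed to vary like the other groups. At day 14, 2 members were higher under DESeq2, 3 higher and 4 lower in the groups alone, 0 higher with at least 10 counts in every sample, and 0 lower with the replicate block, the choroid plexus score as a covariate, or the 3 samples left out. In the difference, 5 were lower under DESeq2, and 1 was lower under limma-voom, with at least 10 counts, with the score or without the 3 samples. For sham by day, 0 were higher under limma-voom, with at least 10 counts, with the block, with the score or without the 3 samples, 3 were higher in the groups alone, and 4 were lower with the score or without the 3 samples. In TBI day 1 against sham day 14, 0 were higher with at least 10 counts. Replicate numbers were not taken to pair the samples, since same-numbered samples did not all deviate together and not every sample correlated best with its own number. With the replicate block, 27 members were lower at day 1, 1 was higher in the difference (Kcnj8), and a call lost with it is not a weaker effect.

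The log2 fold changes of some named members changed sign. With the choroid plexus score, Kcnj13 read 1.41 in the difference, 1.55 at day 1 and -0.89 for sham by day, Kcne2 1.05 at day 1 and -0.36 at day 14, and Kcnj16 0.015 at day 1. Without the 3 samples, the same order gave 2.53, 2.82 and -2.04 for Kcnj13, 1.77 and -0.020 for Kcne2, 0.49 for Kcnj16, and 0.018 for Kcnj10 at day 1. Over the fits that left out 1 sample, Kcnj13 ranged from -6.73 to 2.85 at day 1 and from -2.05 to 7.52 for sham by day, Kcne2 from -3.14 to 1.78, Kcnj10 from -1.21 to 0.027, Kcnj16 from -0.47 to 0.50 and Kcnip1 from -0.27 to 0.0087 at day 1, and the difference for Kcnn4 from -0.14 to 2.06. Median-of-ratios factors, no filter on low counts, and count sums of 50 or 200 for membership left every count within 1.5 times its value, and the median of each subfamily moved by less than its spread between replicates under RLE factors, a prior count of 0.5 and each sample left out. The cause of the other changes was not tested. A fit on the groups compared alone gives no value for the difference, which needs all 4 groups. Depth limits the members under 1 CPM.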
